A study of Mus musculus with 3 samples.

Results

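RNA of the leptin receptor, of 4 receptor chains of the interleukin-6 family, of STAT3 and of 2 inhibitors of cytokine signalling was measured in cells of the mouse hypothalamus. The 8 genes are Lepr, Il6st, Il6ra, Osmr, Lifr, Stat3, Socs3 and Socs2, selected by symbol, and all 8 were among the 32285 genes counted. They were chosen with earlier results of these data known. The mice were 8-week-old males of similar weight, and 3 single-cell libraries were made. HS came from heat-exposed mice, QS from mice recovering after the exposure, and PF from control mice given as much food as the heat-exposed mice ate. The sources used here give no strain, no number of mice behind a library and no recovery time. Cells were freed from the tissue by collagenase II and mechanical force and went through a droplet kit for 3′ ends from 10x Genomics (version 3), which counts RNA molecules by unique molecular identifiers (UMIs).

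Leptin and the interleukin-6 family of cytokines signal through related receptors that activate Janus kinases, which phosphorylate STAT3. STAT3 then enters the nucleus and raises the transcription of its targets, among them Socs3, whose product blocks the same receptors and closes the loop. In the hypothalamus this route is best known from neurons in which leptin curbs food intake, while brain endothelium and glia use it to answer circulating cytokines.

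Each condition is 1 library, so no test across animals was possible. Intervals are exact 95% intervals that cover counting error only. Levels are given as CPM, the gene's UMIs per 1000000 UMIs that a library holds in a cell class. Cells were classed by 8 markers per class, carry the ending "-like" because these classes rest on RNA alone, and 27034 of 34289 kept cells (78.8%) passed the gate. Of the kept cells, 7602 lay within 1 marker of the cut. In the classes given here, the median cell showed 6 to 8 of its own markers and 1 to 3 of the closest other class. The libraries held 103891747 (HS), 93295920 (QS) and 100727912 (PF) UMIs, and no more than 42 cell barcodes were shared by any pair of libraries. Although the tissue is labelled hypothalamus, neuron-like cells were scarce (26 in HS, 47 in QS, 28 in PF), while 10946 cells were endothelial-like. Fewer than 50 neuron-like or tanycyte-like cells were present in at least 1 library, so 9 classes are described in full.

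A pair of promoters is shown first, those of the transcription factor and of its inhibitor, because Stat3 and Socs3 differed in the same direction in ependymal-like cells. The sequences are the 250 bases before the start in RefSeq (mm10), read on the gene's strand, at chr11:117969367-117969616 for Socs3 and chr11:100939541-100939790 for Stat3, both on the minus strand. Capitals mark a match to TTCNNNGAA, the motif that STAT proteins bind, searched on both strands (it reads the same on each).
Socs3: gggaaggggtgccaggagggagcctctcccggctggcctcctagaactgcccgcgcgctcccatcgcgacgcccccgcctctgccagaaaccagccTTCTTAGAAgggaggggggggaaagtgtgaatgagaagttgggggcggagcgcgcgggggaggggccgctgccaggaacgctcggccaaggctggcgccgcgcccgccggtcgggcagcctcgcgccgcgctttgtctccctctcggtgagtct
Stat3: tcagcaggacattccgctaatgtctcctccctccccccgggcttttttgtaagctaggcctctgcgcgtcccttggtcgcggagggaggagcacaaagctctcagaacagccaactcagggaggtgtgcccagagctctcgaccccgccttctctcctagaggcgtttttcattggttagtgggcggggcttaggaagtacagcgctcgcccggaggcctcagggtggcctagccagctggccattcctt
The Socs3 window holds 1 match, TTCTTAGAA, whose first base lies 154 bases before the RefSeq start. This window lies inside the Socs3 interval given below (chr11:117966079-117970047), whose annotation puts the start of the gene further upstream. No match is in the Stat3 window, nor in the other windows of the 7 members with an entry (9 entries, 1 with a match). Of all 32851 promoter windows of this length, 7.02% hold the motif.

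Lepr (chr4:101717404-101815352, plus strand, mm10), which encodes the leptin receptor, had most of its UMIs in endothelial-like cells, the largest class. They held 96.4% (HS), 95.9% (QS) and 95.1% (PF) of the Lepr UMIs in gated cells. Its level there was 17.97 CPM in HS, 16.1 CPM in QS and 15.8 CPM in PF, from 534, 378 and 484 UMIs in the same order. A Lepr UMI was seen in 10.6% of endothelial-like cells in HS, 9.39% in QS and 9.43% in PF, against 0.161%, 0.126% and 0.408% of microglia-like cells, whose median depth was higher (7615, 8068 and 7628.5 UMIs, against 5673, 5214.5 and 5551). After thinning to 2000 UMIs per cell the endothelial shares were 3.18% in HS, 2.53% in QS and 3.47% in PF, with 501, 466 and 665 shallower cells left out. The ratio of HS to PF was 1.14 (1.01 to 1.29) and that of QS to PF 1.02 (0.893 to 1.17), neither past the fold used below. In 1 of 4 endothelial clusters with enough UMIs, HS stood at 3.77 CPM against 7.97 CPM in PF (ratio 0.473, 0.272 to 0.798), while the other 3 gave ratios of 1.09 to 1.2. The kit reads the 3′ end and the files give 1 value for the gene, so its long signalling form and its short forms, which brain capillaries are known to carry, were not told apart.

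Lepr followed the vessel segment. Capillary-like cells (marked by Mfsd2a, Tfrc and others) had 19.6 CPM in HS, 18.2 CPM in QS and 17.7 CPM in PF, and venous-like cells had 21.87, 17.05 and 22 CPM. Arterial-like cells (marked by Gkn3, Bmx and others) had 2.76 CPM in HS, 1.22 CPM in QS and 1.99 CPM in PF, on 7, 3 and 6 UMIs. Capillary-like cells thus had 7.08 times (HS; 3.4 to 17.8), 14.9 times (QS; 5.03 to 72.5) and 8.85 times (PF; 4.02 to 24.3) the arterial level. Capillary-like and venous-like cells were not told apart, with venous to capillary ratios of 0.937 to 1.246 whose intervals all include 1. Beside the endothelium, fibroblast-like cells came next at 3.83, 13.5 and 6.56 CPM on 5, 4 and 8 UMIs. The endothelial level was 4.7 times (HS; 2 to 14.5), 1.2 times (QS; 0.464 to 4.42) and 2.4 times (PF; 1.21 to 5.6) theirs, so the classes were not told apart in QS. In 1 of the 2 clusters of the fibroblast gate, Lepr had 14.6 CPM in HS, 17.2 CPM in QS and 14.0 CPM in PF, on 5, 4 and 5 UMIs. The other held 0, 0 and 3 UMIs. Vascular smooth muscle-like cells had no Lepr UMI in 363 cells, which allows up to 0.826% of cells with a UMI and sets no limit on cells that express the gene. Tanycyte-like cells, specialised ependymal cells of the third ventricle floor, had none in 195 cells, which allows up to 1.54% of cells with a UMI. The 101 neuron-like cells held 6 Lepr UMIs, in 2 PF cells.

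**Figure D1:**
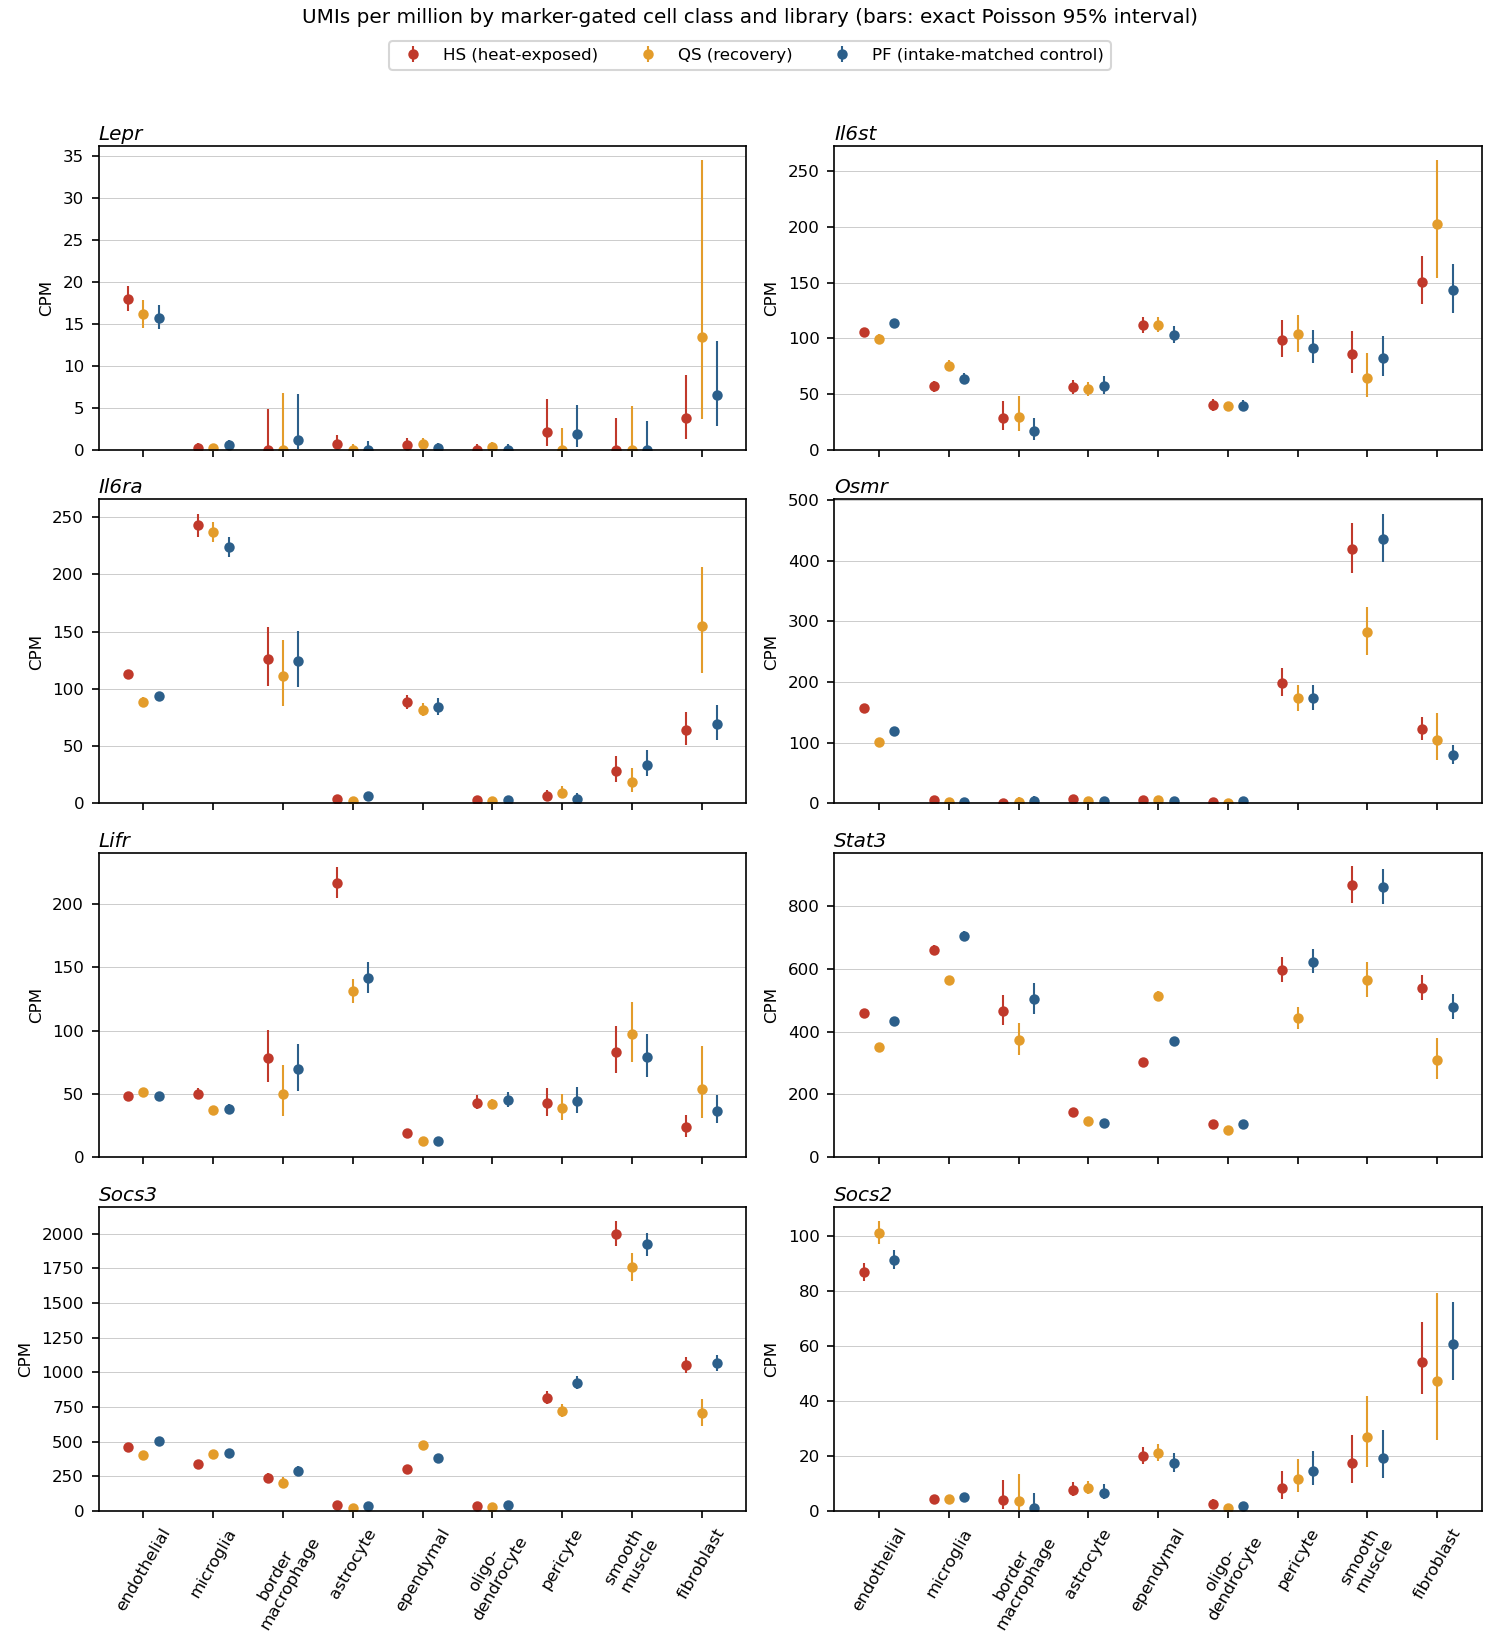
Level of each of the 8 genes (CPM, linear axis from 0, one scale per gene) in 9 marker-gated cell classes, with HS, QS and PF from left to right and exact Poisson 95% intervals. Lepr is highest in endothelial-like cells (17.97 CPM in HS, 16.1 in QS, 15.8 in PF), with an interval that overlaps that of fibroblast-like cells in QS. Lifr stands out in astrocyte-like cells of HS (217 CPM), and Stat3 and Socs3 are high in QS in ependymal-like cells (513 and 476 CPM).

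Il6st (chr13:112464070-112510086, plus strand) encodes gp130, the signalling chain that receptors of the interleukin-6 family share and that the leptin receptor resembles. It was found in all 9 classes. Fibroblast-like cells had the highest level, 151 CPM in HS, 202 CPM in QS and 143 CPM in PF, and border-associated macrophage-like cells the lowest, 28.6, 29.6 and 16.7 CPM. Between them, ependymal-like cells had 112, 112 and 103 CPM and endothelial-like cells 106, 99.3 and 114 CPM. These neighbours, and pericyte-like cells (98.5, 103 and 91.7 CPM), overlapped in range over the libraries. Within the endothelium, venous-like cells had 171 CPM in HS, 163 CPM in QS and 211 CPM in PF, against 73.4, 78.4 and 75.9 CPM in capillary-like cells, 2.08 to 2.78 times as much. Arterial-like cells, at 149.9 CPM in HS and 142.9 CPM in both QS and PF, also lay above capillary-like cells.

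Il6ra (chr3:89864059-89913196, minus strand), the chain that binds interleukin-6, was highest in microglia-like cells, with 243 CPM in HS, 237 CPM in QS and 224 CPM in PF. Border-associated macrophage-like cells followed with 126, 111 and 124 CPM, a range that overlaps that of endothelial-like cells at 113, 88.7 and 94.1 CPM. Ependymal-like cells had 88.5, 81.9 and 84.4 CPM, fibroblast-like cells 64.3, 155 and 69.7 CPM and vascular smooth muscle-like cells 28.4, 18.3 and 34.0 CPM, whereas oligodendrocyte-like, astrocyte-like and pericyte-like cells stayed at 2.06 to 8.96 CPM. Its vessel pattern was steeper than that of Il6st. Venous-like cells had 251 CPM in HS, 209 CPM in QS and 211 CPM in PF, capillary-like cells 84.0, 81.1 and 75.4 CPM, and arterial-like cells 28.0, 20.4 and 23.9 CPM. The venous level was 2.58 to 2.98 times the capillary level and 8.84 to 10.3 times the arterial level, so the order of the segments was the same in each library. An antisense gene, Gm42809, overlaps Il6ra, and the sources used here do not say whether strand was used in counting, so a part of these UMIs may be its own.

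Osmr (chr15:6813577-6874969, minus strand), the oncostatin M receptor chain that pairs with gp130, was read mainly in cells of the vessel wall. Vascular smooth muscle-like cells had 419 CPM in HS, 282 CPM in QS and 436 CPM in PF, pericyte-like cells 199, 173 and 174 CPM, endothelial-like cells 158, 101 and 120 CPM, and fibroblast-like cells 122.5, 104.5 and 79.5 CPM. The other 5 classes given in full had 1.3 to 7.72 CPM. Tanycyte-like cells, too few for a full account, had 30.5 CPM in HS, 40.9 CPM in QS and 7.13 CPM in PF, on 28, 28 and 2 UMIs. Arterial-like cells held 2.03 to 2.12 times the capillary level, which was 123 CPM in HS, 84.3 CPM in QS and 90.4 CPM in PF. Venous-like cells, at 192.8, 141 and 169 CPM, also lay above it. So did fenestrated-like endothelial cells, taken up below, at 196.2 CPM in HS and 176.8 CPM in PF.

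Lifr (chr15:7090614-7197489, plus strand), which pairs with gp130 to bind leukaemia inhibitory factor and ciliary neurotrophic factor, was highest in astrocyte-like cells, with 217 CPM in HS, 131 CPM in QS and 141 CPM in PF. Vascular smooth muscle-like cells were next at 83.3, 97.2 and 79.1 CPM, and ependymal-like cells lowest at 18.9, 13.1 and 12.6 CPM. In the endothelium it was 2.13 to 2.83 times higher in arterial-like than in capillary-like cells, the reverse of Lepr and Il6ra. In fenestrated-like cells, the kind that lines the median eminence, it had 141 CPM in HS (74 cells) and 217 CPM in PF (57 cells), a ratio of 0.65 (0.467 to 0.901), among cells in which 3.08% of genes were at least 1.5-fold lower in HS with an interval that excludes 1. There 1 cell held 17.9% of the 67 UMIs in HS and 24.2% of the 91 in PF, and the thinned shares of cells with a UMI overlapped, at 22.9% (13.7 to 34.5) in HS and 26.4% (15.3 to 40.3) in PF.

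**Figure D2:**
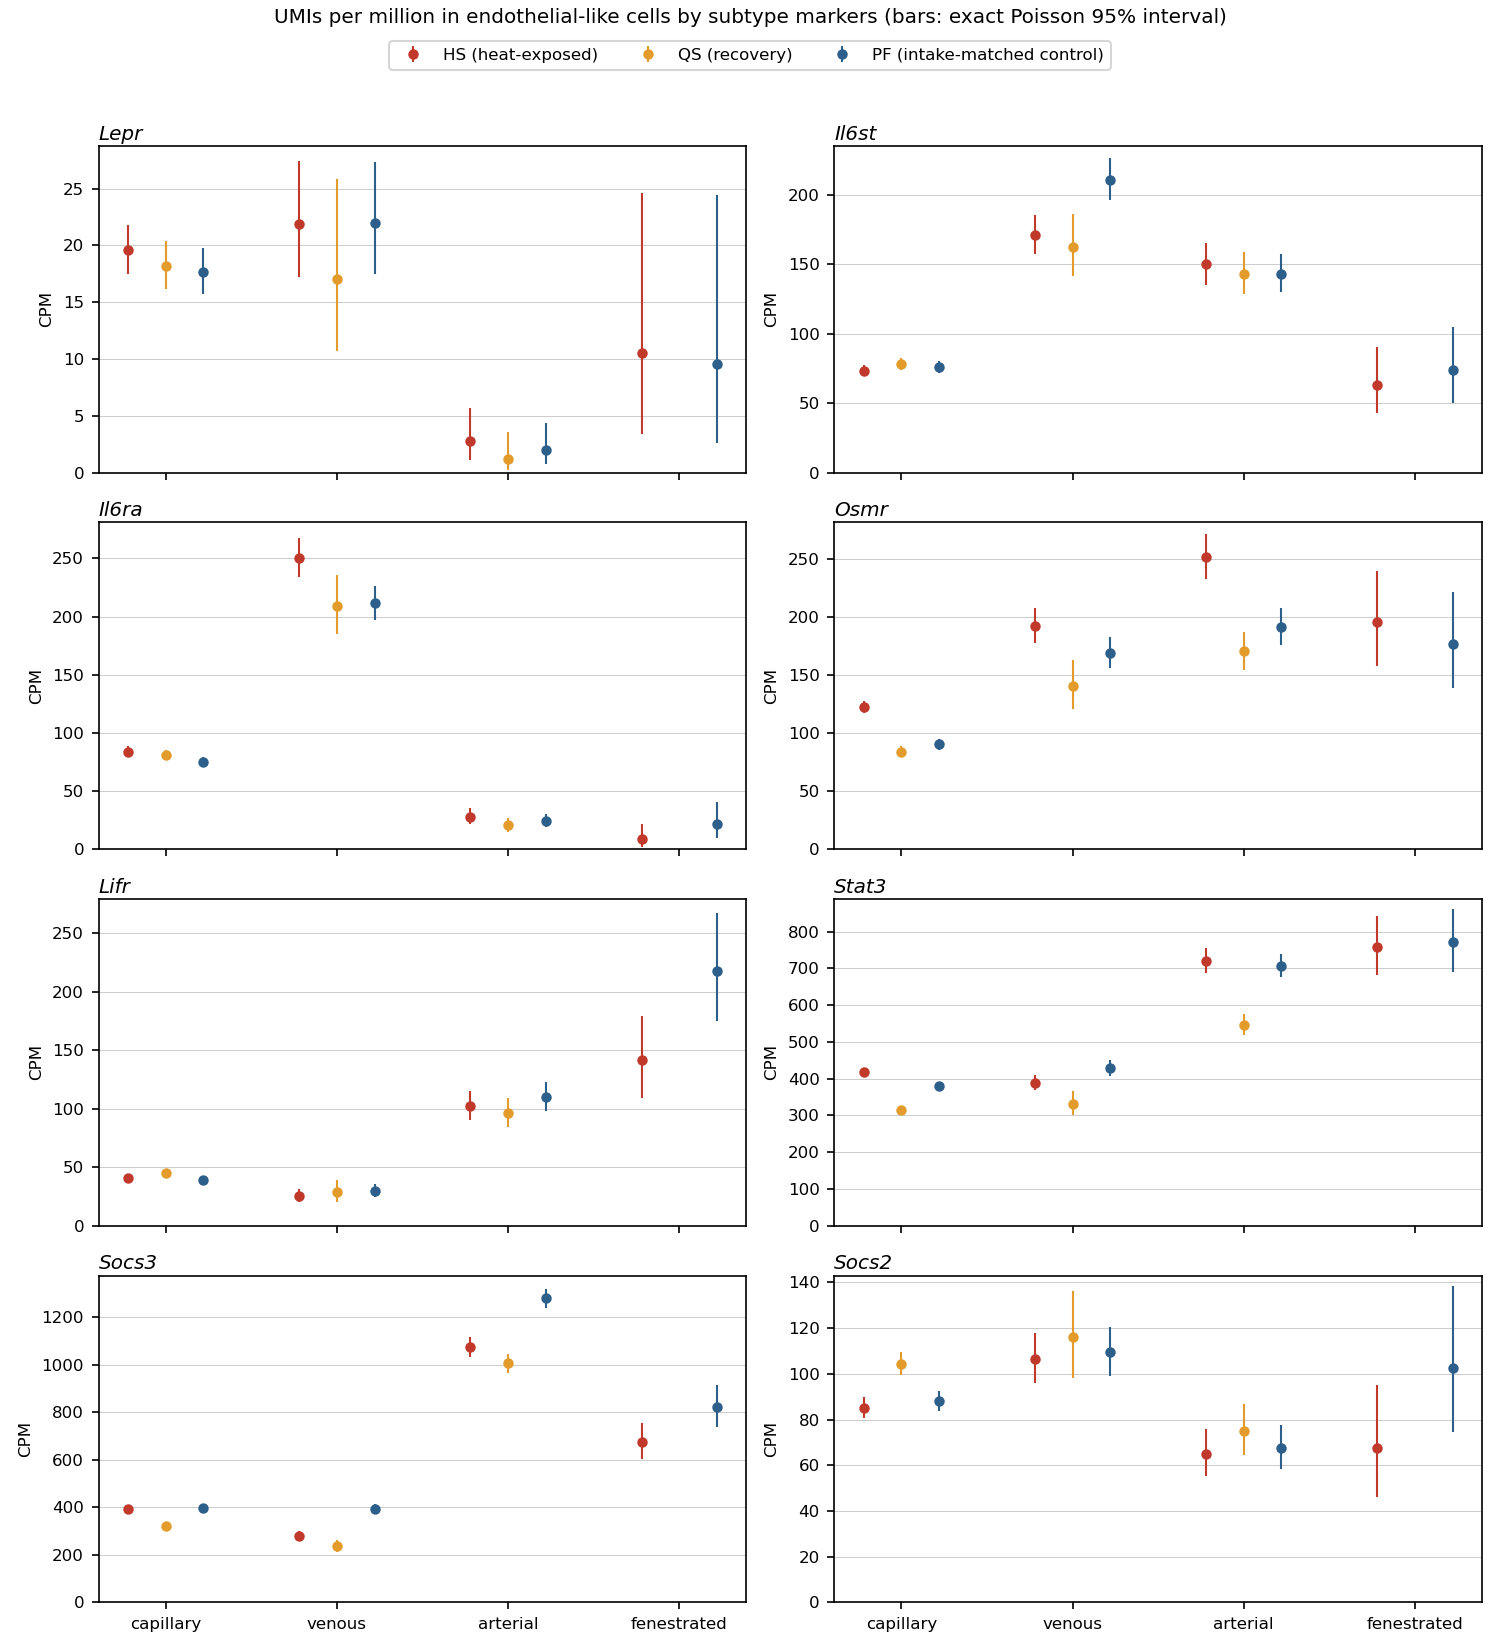
Level of each gene (CPM, linear axis from 0) in endothelial-like cells split by 5 markers per vessel segment, with HS, QS and PF from left to right and exact Poisson 95% intervals. Lepr and Il6ra are low in arterial-like cells, Il6st, Osmr, Lifr, Stat3 and Socs3 are higher there than in capillary-like cells, and fenestrated-like cells of QS (9 cells) are left out.

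Stat3 (chr11:100885098-100939540, minus strand) was found in all 9 classes. It was highest in vascular smooth muscle-like cells (865 CPM in HS, 563 CPM in QS, 861 CPM in PF) and microglia-like cells (659, 563 and 704 CPM), and lowest in astrocyte-like (145, 115 and 110 CPM) and oligodendrocyte-like cells (106, 85.6 and 106 CPM). Endothelial-like cells had 459 CPM in HS, 350 CPM in QS and 434 CPM in PF. Stat5a lies across Stat3 on the opposite strand, so their UMIs may be mixed if strand was not used, which was not tested. Socs3 (chr11:117966079-117970047, minus strand), which blocks gp130 and the leptin receptor, ran from 1997 CPM in HS, 1758 CPM in QS and 1922 CPM in PF in vascular smooth muscle-like cells down to 33.8, 25.2 and 41.5 CPM in oligodendrocyte-like cells, a level that overlaps that of astrocyte-like cells (41.4, 22.1 and 34.3 CPM). Arterial-like cells had 1073, 1005 and 1278 CPM, 2.74 to 3.23 times the capillary level.

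Socs2 (chr10:95385362-95417180, minus strand) restrains growth hormone receptor signalling and is best known as a target of STAT5. Endothelial-like cells, the largest class, held 82.3% (HS), 83.9% (QS) and 88.4% (PF) of its gated UMIs, at 86.8 CPM in HS, 101 CPM in QS and 91.3 CPM in PF. Fibroblast-like cells had 54.4, 47.2 and 60.6 CPM, and every other class given in full 1.2 to 26.8 CPM. Tanycyte-like cells, too few for a full account, had 177, 101 and 103 CPM, on 163, 69 and 29 UMIs. Unlike Socs3, Socs2 was lower in arterial-like than in venous-like cells, at 0.612 to 0.646 of the venous level.

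Across the 27 points that 9 classes and 3 libraries give, the genes whose log2(CPM + 5) followed each member most closely are named here as a description, since points share libraries and classes. Lepr was closest to Bvht (r = 0.962), Itm2a (0.958, itself 1 of the endothelial gate markers) and Foxq1 (0.949). Osmr was closest to Akap12 (0.984), Igfbp7 (0.982) and Lrrc32 (0.974), and Il6ra to Ctsh (0.928), Jpt1 (0.897) and Tgfbr2 (0.893). Stat3 was closest to the immediate early genes Egr1 (0.945), Btg2 (0.938) and Fos (0.938), and Socs3 to Myadm (0.963), Lmna (0.954) and Coq10b (0.952). The values were lower for Il6st (Uck1, 0.895) and Lifr (Esrra, 0.808), while Socs2 was closest to Serpinb9 (0.95).

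Levels were then set between libraries, HS against PF for the heat-exposed state, QS against PF for recovery, and QS against HS for the step between them. HS/PF and QS/PF share the PF library. A ratio was called higher or lower on 3 conditions, a difference of at least 1.5-fold in either direction, an interval that leaves out 1, and 30 or more UMIs in the library where the gene stood higher. A pair of a gene and a class counted as measured with at least 30 UMIs in both libraries together. Members were not matched to other genes for their number of UMIs.

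In heat-exposed mice, most members stood near their control level, and the receptor chains Lifr and Osmr accounted for every called pair. Of 60 measured pairs, 4 were higher in HS than in PF (6.67%, against 1.81% of all gene and class pairs) and 0 were lower (against 1.94%). With classes of at least 200 cells in every library only, 3 were higher. In those classes 0.987% (oligodendrocyte-like) to 2.16% (endothelial-like) of genes were called higher. The median log2 ratio of the members was 0.01, beside -0.01 over all pairs. Lifr in astrocyte-like cells had 1236 UMIs and 217 CPM in HS, against 519 UMIs and 141 CPM in PF, a ratio of 1.53 (1.38 to 1.7), in a class where 1.42% of genes were called higher. It was 1.56 and 1.44 in the 2 astrocyte clusters, and the share of cells with a Lifr UMI after thinning was 34.1% (31.4 to 36.9) in HS and 24.2% (21.2 to 27.3) in PF. Osmr in endothelial-like cells missed the fold at 1.32 (1.26 to 1.38), but its ratio was above 1 in all 6 endothelial clusters measured (1.05 to 1.46).

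The other 3 called pairs of HS against PF were all Osmr. In fibroblast-like cells it had 122.5 CPM in HS and 79.5 CPM in PF, a ratio of 1.54, with 22.5% of the HS UMIs in 1 cell. The ratio was 2.36 (1.6 to 3.54) in 1 of the gate's 2 clusters and 1.11 (0.775 to 1.6) in the other, and 1.33 to 1.46 and not called with a looser gate, with whole clusters, with a mean over cells and after thinning. In that class 2.37% of genes were called higher. In microglia-like cells Osmr had 4.95 CPM in HS and 2.91 CPM in PF (1.7, against 1.91% of genes called higher), and in astrocyte-like cells 7.72 CPM and 3.81 CPM (2.03, 1.09 to 4). Both rest on few UMIs (47 in HS and 33 in PF in microglia-like cells, 44 and 14 in astrocyte-like cells), and 1 cell held 21.3% of the microglial UMIs of HS. RNA of the endothelium was read at a low level in these glia. The 8 endothelial gate markers had medians of 1.24% (HS) and 1.55% (PF) of their endothelial level in microglia-like cells and 1.48% and 1.68% in astrocyte-like cells, where Osmr stood at 3.14% and 2.43%, and at 4.9% and 3.18%. The part of this RNA in the Osmr ratios was not tested. The microglial ratio was 0.96 when whole clusters replaced the gate, and the calls in both classes were lost after thinning (1.06 and 3.25).

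**Figure D3:**
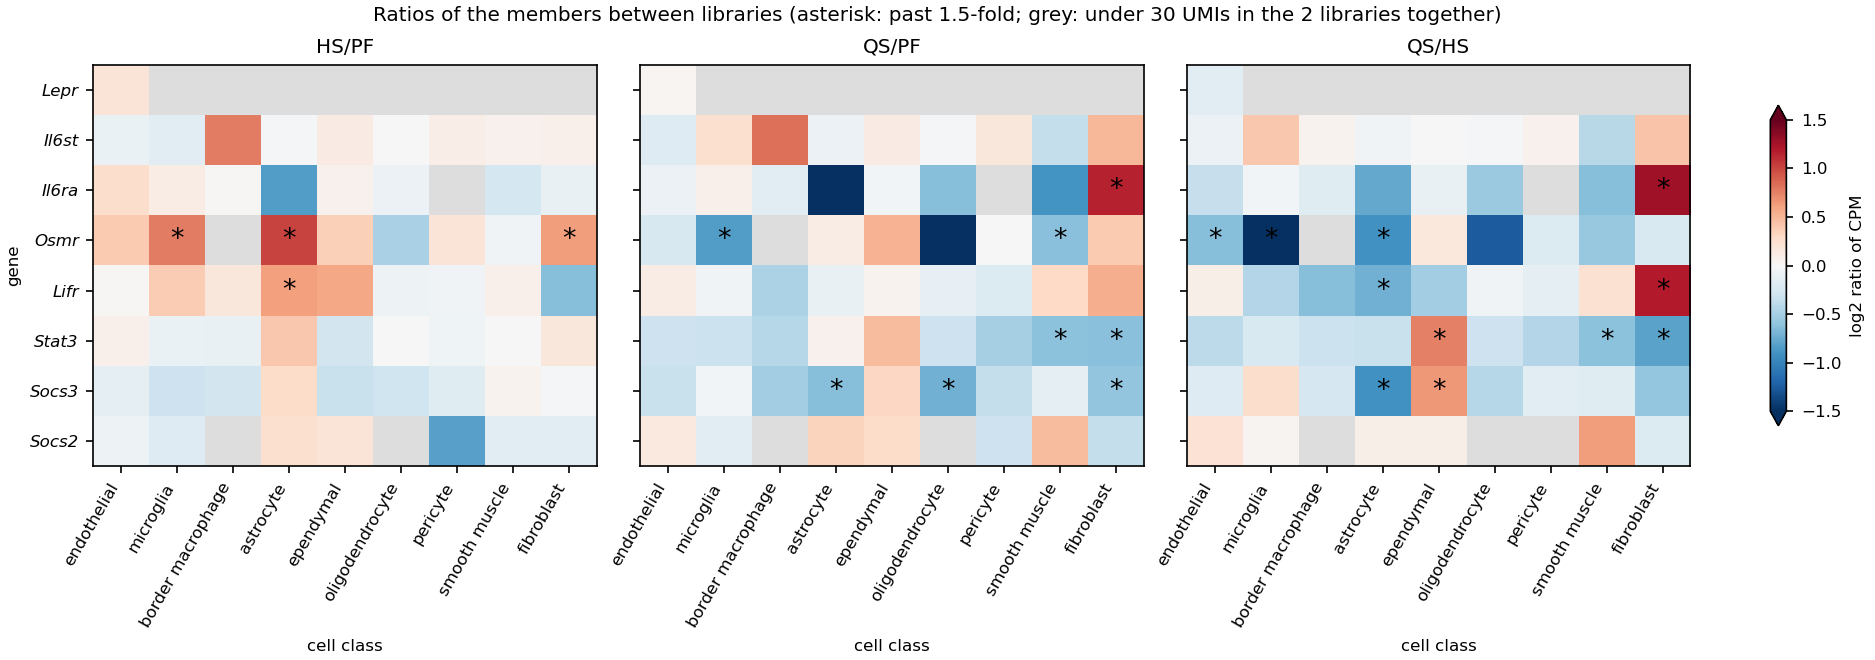
Log2 ratios of CPM for the 8 genes (rows) and 9 cell classes (columns) in HS/PF, QS/PF and QS/HS, red where the first library is higher and blue where it is lower, with colours saturating at the ends of the bar. Asterisks mark called pairs (4 in HS/PF, 8 in QS/PF, 11 in QS/HS) and grey marks pairs with too few UMIs, which include Lepr outside the endothelium.

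In recovery, Stat3 and Socs3 tended to sit below the control in most classes but not in ependymal-like cells. Of 60 pairs, 7 were lower in QS than in PF (11.7%, against 3.65% of all pairs) and 1 was higher (1.67%, against 2.07%). With classes of at least 200 cells in every library only, 3 were lower and 0 higher. In those classes 2.36% (ependymal-like) to 4.01% (microglia-like) of genes were called lower, and 0.926% (astrocyte-like) to 2.3% (oligodendrocyte-like) higher. The members' median log2 ratio was -0.11, beside -0.02 over all pairs. Stat3 had a ratio below 1 in 7 of 9 classes and Socs3 in 8 of 9. In endothelial-like cells the ratios were 0.807 (0.785 to 0.83) for Stat3 and 0.796 (0.776 to 0.817) for Socs3, short of the fold, while in venous-like cells Socs3 had 236 CPM in QS and 393 CPM in PF (0.601, 0.529 to 0.68), among cells in which 3.11% of genes were called lower. Vascular smooth muscle-like cells (98 in QS, 144 in PF) had 563 CPM of Stat3 in QS and 861 CPM in PF (0.654), and 282 CPM and 436 CPM of Osmr (0.647), in a class where 3.91% of genes were called lower. Those 2 ratios were 0.842 and 0.776 when whole clusters replaced the gate and 0.813 and 0.731 with a looser gate, and not called, and that of Osmr was also not called at a stricter mitochondrial limit (0.688) and after thinning (0.698). The cluster that took the name of this class held 1679 cells, of which only 358 passed any gate, so the class leaves out most of that cluster.

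Socs3 was also lower in recovery in the glia that hold little of it. Oligodendrocyte-like cells had 25.2 CPM in QS and 41.5 CPM in PF (0.608), with 0.621 and 0.573 in their 2 clusters, in a class where 3.15% of genes were called lower. Astrocyte-like cells had 22.1 CPM in QS and 34.3 CPM in PF (0.643, against 2.95% of genes), and the call was lost after thinning (0.745), with a looser gate (0.844) and with whole clusters (0.673). RNA of the endothelium moved the same way in these glia. The endothelial markers had a median of 0.739% of their endothelial level in oligodendrocyte-like cells of QS and 1.33% in those of PF, and 0.965% and 1.68% in astrocyte-like cells. With the same 5% of UMIs subtracted as free RNA in each library, the Socs3 ratios were 0.272 in oligodendrocyte-like and 0.146 in astrocyte-like cells. An equal subtraction does not account for the difference between QS and PF in endothelial RNA, whose part in these ratios was not tested. Osmr in microglia-like cells had 1.63 CPM in QS and 2.91 CPM in PF (0.561, 0.309 to 0.999, against 4.01% of genes called lower), on 21 and 33 UMIs. That is 1.61% and 2.43% of its endothelial level, beside marker medians of 0.798% and 1.55%. Their part in this ratio was not tested, and the call was lost in 5 of 9 alternatives.

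The fibroblast-like class held only 52 cells in QS, against 190 in HS and 200 in PF, and drew on 2 clusters in other proportions. The cluster led by Slc6a20a, Lama1, Vtn, Dcdc2a and Igf2 made up 76.9% of it in QS, 32.6% in HS and 34.5% in PF, the rest coming from a cluster led by Cxcl10, Gsn, Piezo2, Grm7 and Cntfr. In the whole class, Il6ra had 155 CPM in QS and 69.7 CPM in PF (2.23), Stat3 310 CPM and 479 CPM (0.648), and Socs3 704 CPM and 1064 CPM (0.662). Within the first cluster (40 cells in QS, 69 in PF) these ratios were 1.17 (0.772 to 1.76) for Il6ra, 0.958 (0.699 to 1.31) for Stat3 and 1.57 (1.26 to 1.95) for Socs3, so Il6ra and Stat3 were not called there and Socs3 was higher. The other cluster had only 12 cells in QS, against 131 in PF. There Socs3 stood at 0.405 (0.279 to 0.569; 34 UMIs in QS, 1126 in PF) and Stat3 at 0.652 (0.409 to 0.99; 23 and 473 UMIs), both lower, so the clusters went opposite ways for Socs3. In this class 6.8% of all genes were called higher and 7.46% lower in QS.

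Between recovery and heat exposure, Stat3 and Socs3 were higher in QS in ependymal-like cells while Osmr was lower in QS in endothelial-like cells and Lifr in astrocyte-like cells. QS/HS shares the HS library with HS/PF and the QS library with QS/PF. Of 59 pairs, 4 were higher in QS than in HS (6.78%, against 2.82% of all pairs) and 7 were lower (11.9%, against 3.98%). With classes of at least 200 cells in every library only, 2 were higher, and the count of lower pairs stayed within 1.5 times. In those classes 1.48% (microglia-like) to 3.43% (oligodendrocyte-like) of genes were called higher, and 2.51% (oligodendrocyte-like) to 4.54% (microglia-like) lower. The members' median log2 ratio was -0.2, beside -0.01 over all pairs. In ependymal-like cells, which line the ventricles and bear cilia, Stat3 had 513 CPM in QS and 304 CPM in HS (1.69, 1.61 to 1.77, in a class where 2.2% of genes were called higher), with PF between them at 369 CPM. Socs3 had 476 CPM in QS and 304 CPM in HS (1.56, 1.49 to 1.64), with PF at 384 CPM. The Stat3 ratio was 1.58 and 1.85 in the 2 ependymal clusters and that of Socs3 1.51 and 1.7, and the Socs3 call was lost with a looser gate (1.47). After thinning, 47.0% (43.4 to 50.6) of ependymal-like cells in QS and 32.7% (29.4 to 36.1) in HS had a Stat3 UMI.

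The immediate early genes Fos and Junb, chosen after their values were seen, were also higher in QS in these cells. Fos, induced within minutes by many stimuli, tissue digestion included, had 3469 CPM in ependymal-like cells of QS, 1918 CPM in those of HS (1.81, 1.77 to 1.84) and 2297 CPM in those of PF, and Junb 989, 561 and 687 CPM. In oligodendrocyte-like cells Fos had 351 CPM in QS, 485 CPM in HS and 655 CPM in PF, an order that Socs3 shares. The part of these genes' induction in the Stat3 and Socs3 results was not tested. In endothelial-like cells, where Stat3 and Socs3 were lower in QS, Fos had 5774 CPM in QS, 5620 CPM in HS and 5832 CPM in PF.

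**Figure D4:**
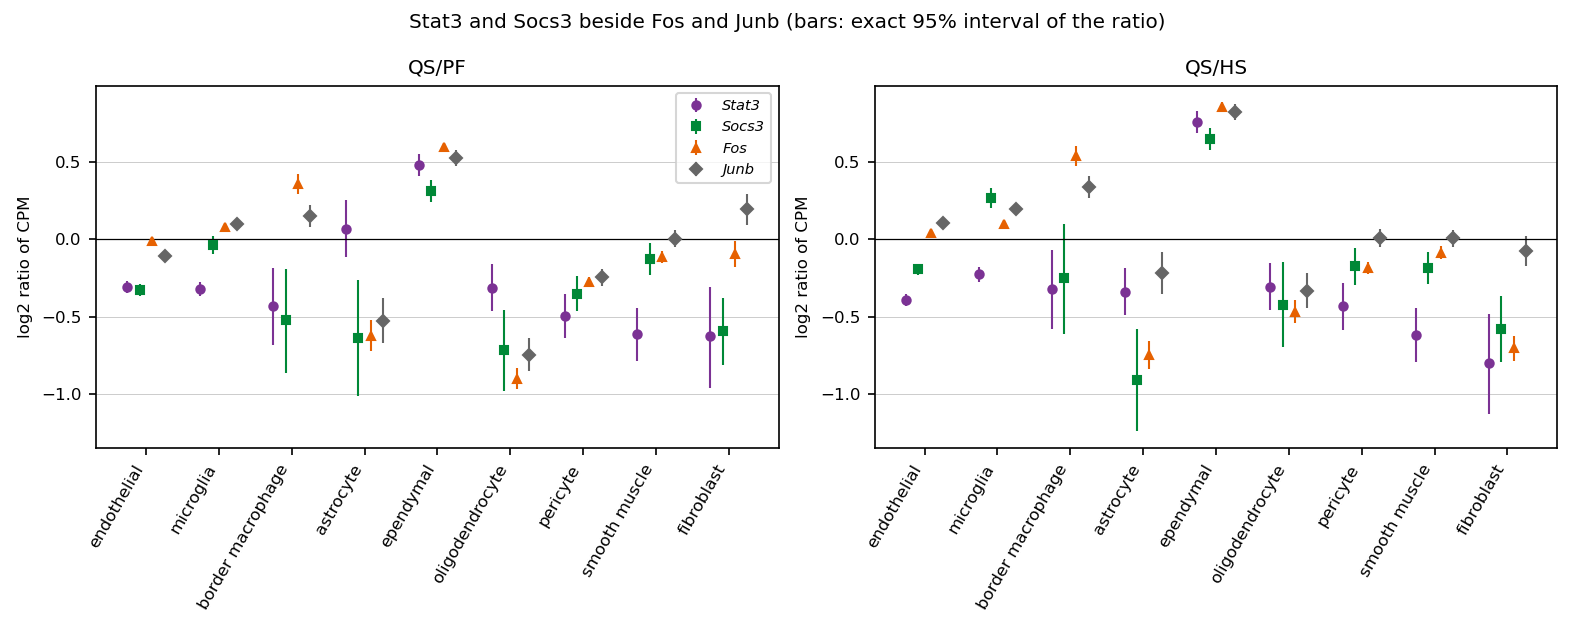
Log2 ratios of CPM of Stat3, Socs3, Fos and Junb in 9 cell classes for QS/PF and QS/HS, with exact 95% intervals of the ratio and a line at no difference. All 4 genes lie above the line in ependymal-like cells in both panels, and Stat3 and Socs3 lie below it in endothelial-like cells.

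Osmr in endothelial-like cells had 101 CPM in QS and 158 CPM in HS (0.643, 0.612 to 0.676), with 0.643 to 0.719 in the 6 clusters measured, 1 of which has an interval that includes 1. In that class 4.48% of genes were called lower, and the call was lost with whole clusters (0.67) and after thinning (0.702). Lifr in astrocyte-like cells had 131 CPM in QS and 217 CPM in HS (0.605, 0.55 to 0.664), with 0.575 and 0.635 in its 2 clusters, and Socs3 in the same cells had 22.1 CPM and 41.4 CPM (0.533, 0.424 to 0.668), lost with a looser gate (0.804). The endothelial markers had medians of 0.965% in QS and 1.48% in HS in these cells. With the same 5% free RNA subtracted in each library, which does not account for that difference, the Socs3 ratio was 0.0777. The part of endothelial RNA in this result was not tested. Of all genes in astrocyte-like cells 2.75% were called lower. Stat3 in vascular smooth muscle-like cells had 563 CPM in QS and 865 CPM in HS (0.651, against 5.57% of genes), and the call was lost with a looser gate (0.778), with whole clusters (0.8) and with a mean over cells (0.672). Osmr on few UMIs was also lower, at 0.33 in microglia-like cells (21 UMIs in QS, 47 in HS, against 4.54% of genes) and 0.533 in astrocyte-like cells (22 and 44 UMIs, with 31.8% of those in QS from 1 cell). Both calls were lost after thinning (0.576 and 0.352). The remaining called pairs lay in the fibroblast-like class, in which 8.87% of genes were called higher and 8.22% lower, where Il6ra was at 2.41, Lifr at 2.27 and Stat3 at 0.574. Within the first fibroblast cluster Il6ra was at 0.966 and Stat3 at 0.752, neither called, and Lifr had 12 UMIs in QS and 9 in HS, too few for a call. In the other cluster Stat3 was at 0.605 (0.38 to 0.917; 23 and 570 UMIs). No pair of Il6st, Socs2 or Lepr was called in any of the 3 comparisons.

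Other genes of the pathway were counted in the same way, from 7 lists. Over all gene and class pairs 1.81% were higher and 1.94% lower in HS/PF, 2.07% and 3.65% in QS/PF, and 2.82% and 3.98% in QS/HS, and most of these lists hold so few pairs that 1 call moves their share by more than 1 percentage point. Among 10 ligands, few pairs had enough UMIs (19 in HS/PF, 19 in QS/PF, 20 in QS/HS), with 0 higher and 1 lower, 1 and 1, and 2 and 0 in these comparisons. Osm, which encodes the ligand oncostatin M, was read mainly in microglia-like cells (49.3 CPM in HS, 39.6 CPM in QS, 41.9 CPM in PF) and border-associated macrophage-like cells. In the macrophages it had 48.1 CPM in HS, 25.9 CPM in QS and 92.1 CPM in PF, on 37, 14 and 77 UMIs, lower than PF in both (0.523, 0.343 to 0.783, and 0.281, 0.147 to 0.501), in a class where 2.54% and 5.14% of genes were called lower. Cntf, the ciliary neurotrophic factor gene, stood at 23.6, 21.4 and 17.6 CPM in ependymal-like cells. Cntfr, the chain that binds it, had 141, 138 and 144 CPM in astrocyte-like cells, the class with most Lifr, and 355, 108 and 311 CPM in fibroblast-like cells.

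Among 7 kinases and phosphatases, 0 of 53 pairs were called higher in each comparison, with 1 (HS/PF), 3 (QS/PF) and 2 (QS/HS) lower. Jak1, a kinase bound to gp130, was highest among microglia-like cells, with 1173 CPM in HS and 1059 CPM in both QS and PF. Ptpn2, a phosphatase that acts on STAT3, had 42.1 CPM in QS and 74.7 CPM in PF in pericyte-like cells (0.563). Of 8 other inhibitors, 0 of 63 pairs were higher and 3 lower in HS/PF, 0 of 59 higher and 3 lower in QS/PF, and 2 of 60 higher and 2 lower in QS/HS. The 6 other STAT genes gave 1 higher and 2 lower of 42, 1 and 2 of 41, and 2 and 2 of 41 in the same comparisons. The 6 other receptor chains had 0 higher and 1 lower of 35, 1 and 2 of 34, and 2 and 1 of 35.

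The 18 genes listed as STAT3 targets, which include Osmr and the immediate early genes Fos and Junb, form the longest list. Like the others, it was chosen with earlier results of these data known. In HS/PF 8 of 128 pairs were higher (6.25%) and 6 lower (4.69%), in QS/PF 6 of 123 higher (4.88%) and 25 lower (20.3%, against 3.65% of all pairs), and in QS/HS 7 of 125 higher (5.6%) and 22 lower (17.6%, against 3.98%). Their median log2 ratios were -0.05, -0.13 and -0.07, beside -0.01, -0.02 and -0.01 over all pairs. Lcn2, an acute-phase gene for a protein that binds siderophores, had 357 CPM in endothelial-like cells of QS, against 899 CPM in HS (0.397) and 765 CPM in PF (0.467). Lrg1, another acute-phase gene, had 73.2 CPM in QS, against 184 CPM in HS (0.397) and 157 CPM in PF (0.466). In microglia-like cells Lcn2 stood at 1.685% (HS), 0.914% (QS) and 2.12% (PF) of its endothelial level. The endothelial gate markers had medians of 1.24%, 0.798% and 1.55% there. A fall of an endothelial gene can thus be counted again in other classes, and its part in the lower pairs of this list was not tested. Bcl6, a repressor, was lower in astrocyte-like cells of QS (118 CPM) than of HS (184 CPM, 0.642), as Lifr was. The 6 genes tied to growth hormone and STAT5, Bcl6 among them, gave 2 higher (8%) and 1 lower (4%) of 25, 0 and 2 (8.33%) of 24, and 1 (4%) and 4 (16%) of 25. Igfbp3, which binds insulin-like growth factors, stood out in endothelial-like cells at 101 CPM in HS, 46.6 CPM in QS and 63.9 CPM in PF (HS/PF 1.59, QS/HS 0.46).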

How the data were processed

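Deposited values were UMI counts per gene and cell barcode, 1 matrix for each of 3 libraries (1 per condition). The authors made these counts with Cell Ranger against mm10, in version 7.0.1 per the file headers. The processing notes of the submitters name Cell Ranger 5.0.0 and Seurat 3.1.2 instead. No source used here says if introns or strand entered the counting.

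Barcodes were kept with at least 500 UMIs, 200 genes and at most 20% mitochondrial UMIs (208 in HS, 211 in QS and 194 in PF failed), and doublets called by Scrublet in Scanpy 1.11.5 were removed (672, 727 and 765), leaving 11630, 10782 and 11877 cells. A cell joined the class with most of its 8 markers detected, if at least 4 were and no other class had more than 0.5 times as many. Endothelial-like cells were split by 5 markers per segment, of which at least 2 had to be detected. UMIs were summed per class and library and divided by the class total (CPM). Intervals were exact Poisson for CPM, Clopper-Pearson for shares and conditional binomial for ratios, from SciPy 1.17.1. Ratios and calls were checked on simulated counts. With 1 library per condition, no p-value was computed. Leiden clusters (leidenalg 0.10.2, resolution 1) served as 1 of 12 other settings, which also changed the gate, doublets, depth and mitochondrial limits, scaling, cell weights, thinning, free RNA, the UMI minimum and the fold. The members and gene lists were chosen with earlier results of these data known. Every member was described. From the other lists, called pairs with at least 50 CPM and at least 20% of the level of the highest class could be named, up to 4 per list and comparison; other levels given for them were chosen after their values were seen. Promoters were read from RefSeq; protein sequences were not used here. Python 3.11.15, NumPy 2.4.6, pandas 2.3.3, AnnData 0.12.19, matplotlib 3.10.9, scikit-learn 1.9.0 and scikit-image 0.26.0 were also used.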

Additional observations from a re-analysis of the deposited data

Results flagged for a closer look

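In QS against HS, 3 members moved past the fold in opposite directions in different cell classes. Each direction rests on 1 library per condition, and the difference between classes was not tested. Stat3 was higher in ependymal-like cells (1.69) and lower in vascular smooth muscle-like (0.651) and fibroblast-like cells (0.574). Socs3 was higher in ependymal-like cells (1.56) and lower in astrocyte-like cells (0.533). Lifr was higher in fibroblast-like cells (2.27), on 16 UMIs in QS and 31 in HS, and lower in astrocyte-like cells (0.605). The fibroblast-like values mix 2 clusters whose shares differ between the libraries.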

How the results depend on the processing

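Alternatives were 12 planned ones and 2 added after seeing the data (classes of at least 200 cells, and 1 fibroblast cluster). For HS/PF the 4 higher pairs became 2 with Leiden clusters as classes, 1 with cells thinned to 2000 UMIs and 8 at a lower fold. The 0 lower pairs became 3 with a looser gate, 1 with clusters, 2 with a mean over cells, 2 with 5% free RNA subtracted and 1 at a lower fold. For QS/PF the 1 higher pair became 2 with a mean over cells, 0 after thinning, 2 with free RNA subtracted, 3 at a lower fold and 0 with large classes only, and the 7 lower pairs 4 after thinning, 12 at a lower fold and 3 with large classes. For QS/HS the 4 higher pairs became 2 after thinning and 2 with large classes, and the 7 lower pairs 17 at a lower fold. Shares over all gene and class pairs were computed at the main settings only, so the counts under the alternatives have none beside them. A lower fold lets more pairs of any gene pass. Under the other settings these 6 counts stayed within 1.5 times. The cause was not tested.

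Osmr HS/PF in microglia-like cells reversed to 0.96 with clusters as classes. Within the larger QS fibroblast cluster, Socs3 QS/PF reversed to 1.57, while the other cluster (12 QS cells) gave 0.405, and Il6ra QS/HS reversed to 0.966. Lifr in astrocyte-like cells (HS/PF 1.52 to 1.58, QS/HS 0.577 to 0.615), Stat3 QS/HS in ependymal-like cells (1.56 to 1.8) and Socs3 QS/PF in oligodendrocyte-like cells (0.272 to 0.638) kept their calls in all 10 planned settings that gave a value at the fold of 1.5. Depth limits Lepr, which had 17 UMIs or fewer in every class but the endothelial one. No paired analysis was possible because each condition has 1 library.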

Other observations

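Classes with too few cells for a full account gave these values. Tanycyte-like cells (101 in HS, 64 in QS, 30 in PF) had 1751 CPM of Socs3 in HS, 1962 CPM in QS and 1101 CPM in PF, and 177 CPM of Socs2 in HS, 101 CPM in QS and 103 CPM in PF. Their Il6st lay at 130 to 143 CPM over the 3 libraries. The 14 (HS), 12 (QS) and 8 (PF) monocyte-like or dendritic-like cells had 149 CPM of Il6ra in HS, 137 CPM in QS and 150 CPM in PF, between the levels of border-associated macrophage-like and microglia-like cells, and 0 Osmr UMIs. The 19 (HS), 6 (QS) and 7 (PF) oligodendrocyte precursor-like cells had 12, 1 and 4 UMIs of Lifr and 0 of Il6ra.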
